A study of Mus musculus with 10 samples.

Results

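The genes described here are 10 enzymes of the methionine cycle and of the reactions that use its methyl groups, chosen by name as *Mtr*, *Mtrr*, *Bhmt*, *Mat2a*, *Mat2b*, *Ahcy*, *Gnmt*, *Cbs*, *Nnmt* and *Pemt*. They are 10 of the 46983 genes in the count files. RNA came from the right thoracic mammary fat pad of virgin female C57BL/6 mice, with 1 library per mouse. The 5 CFA mice had eaten a diet with 1 mg folic acid (FA) per kg and the 5 HFA mice a diet with 5 mg FA per kg, and in both groups tissue was taken at postnatal day 130, 4 weeks after supplementation had ended and a shared maintenance diet had begun. No mouse carried a transgene or a deletion by the labels, and the mice were fasted before collection. The fat pads were sequenced whole, so that fewer cells of a type and less RNA per cell cannot be told apart in any level given below.

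The libraries held 7672199 to 14829291 reads on genes. Libraries are named by their sample titles, and levels are given as CPM, the reads of a gene relative to its library total after TMM scaling. Adipocyte and epithelial markers were present in all 10 libraries, as the tissue label calls for, and skeletal muscle markers were also abundant (summed CPM 569 to 46514). The libraries T1234, T1334 and T2334 also held B cell markers at a summed 325, 846 and 2286 CPM, against at most 5.53 CPM in each of the other 7. The HFA library T2334 stood apart, with a median correlation to the others of 0.799 against 0.918 to 0.970 for the other 9, so values that moved by over 1.5 times or changed their side of a threshold without it are given both ways for the members. The comparison asks how a higher FA intake, once it has ended, is seen in mammary RNA. Differences between diets were tested by the edgeR quasi-likelihood test with Benjamini-Hochberg adjustment over 15610 genes, written as log2 fold changes of HFA minus CFA. The TMM factors of the CPM values came from all genes, and those of the test from the 15610 genes kept. A log2 fold change is thus not the ratio of the CPM means printed beside it. In a fit with no filter it was -0.0058 for *Mat2a*, against 0.06, and -0.41 for *Ahcy*, against -0.34.

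Methionine is activated to S-adenosylmethionine (SAM), the donor of methyl groups for DNA, histones, lipids and small molecules. Each transfer leaves S-adenosylhomocysteine, which inhibits many methyltransferases until it is split into adenosine and homocysteine. Homocysteine is then either methylated back to methionine, with a methyl group from folate or from betaine, or condensed with serine on the way to cysteine. Liver runs the whole set of these reactions at high rates, whereas most other tissues rely on the folate-dependent route.

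*Ahcy* is shown first by sequence, since its counts depend on near copies of the gene. It encodes adenosylhomocysteinase, the enzyme that splits S-adenosylhomocysteine, and lies on the minus strand of chromosome 2 (155059310 to 155074497, GRCm38). Of the stretches of 75 bases in its transcripts, the length of a sequenced read, 65.9% also occur in other annotated genes. The copy *Gm4737* (minus strand of chromosome 16, 46152985 to 46155077) is annotated as protein-coding, and *Gm9826* (chromosome 1, 7177739 to 7179037) as a processed pseudogene. A further processed pseudogene, *Gm5638*, lies on chromosome X. The transcripts of the annotation gave the following stretch around the exon junction after coding base 295 of *Ahcy*, coding bases 259 to 333. The capitals in *Ahcy* mark the bases either side of that junction, and those in *Gm5638* mark mismatches to *Ahcy*. The stretch is shown since a read across the junction reads the same in *Ahcy*, *Gm4737* and *Gm9826*.
Ahcy: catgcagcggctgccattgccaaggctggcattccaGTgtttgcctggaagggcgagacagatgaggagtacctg
Gm4737: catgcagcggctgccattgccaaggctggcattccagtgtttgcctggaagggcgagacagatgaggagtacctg
Gm9826: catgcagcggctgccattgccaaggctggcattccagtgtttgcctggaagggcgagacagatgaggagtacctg
Gm5638: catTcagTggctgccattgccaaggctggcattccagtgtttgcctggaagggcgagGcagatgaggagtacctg

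A stretch that does tell *Ahcy* from *Gm4737* spans coding bases 415 to 474, where capitals mark the 2 mismatches of the copy.
Ahcy: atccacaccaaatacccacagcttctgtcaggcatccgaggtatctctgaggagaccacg
Gm4737: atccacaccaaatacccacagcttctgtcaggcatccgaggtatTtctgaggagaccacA

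Over the 1296 coding bases of *Ahcy*, *Gm4737* differed at 4 and was 99.69% identical, and 85.02% of stretches of 75 bases were the same. Of the 9 coding exon junctions of *Ahcy*, 7 had a stretch of 75 bases across them that *Gm4737* shares without a mismatch. For *Gm9826* there were 11 differences, 55.4% of stretches the same and 5 such junctions. *Gm5638* aligned over 1250 bases with 60 differences. Among the other members, 10.2% of the stretches of *Mat2a* occur in another gene, as do 21.6% of those of *Bhmt* and 0.131% of those of *Cbs*, and none did for *Mtr*, *Mtrr*, *Mat2b*, *Gnmt*, *Nnmt* and *Pemt*. Reads with more than 1 alignment were left out by the counting and came to between 28.8% and 33.9% of what the counter listed.

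Compared per length, as CPM per kb of exon over 10 libraries, the members spanned a wide range. *Mat2a* was highest (43.5 ± 3.45 SD), followed by *Nnmt* (30.6 ± 11.1) and *Mat2b* (16.3 ± 1.76). *Mat2a* lay above *Nnmt* in 8 of 10 libraries and *Nnmt* above *Mat2b* in 9 of 10. A middle group held *Mtrr* (3.24 ± 0.446), *Pemt* (2.65 ± 0.594), *Ahcy* (2.53 ± 0.528) and *Mtr* (2.51 ± 0.506). Within it neighbours did not differ beyond their spread, and *Ahcy*, whose level leaves out the reads shared with its copies, lay above *Mtr* in 4 of 10 libraries. *Gnmt* (0.591 ± 0.559) and *Cbs* (0.510 ± 0.233) were low and changed places, *Gnmt* being higher in 5 of 10 libraries. *Bhmt* had no reads. The steps from *Mat2b* to *Mtrr* and from *Mtr* to *Gnmt* were seen in all 10 libraries.

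**Figure D1:**
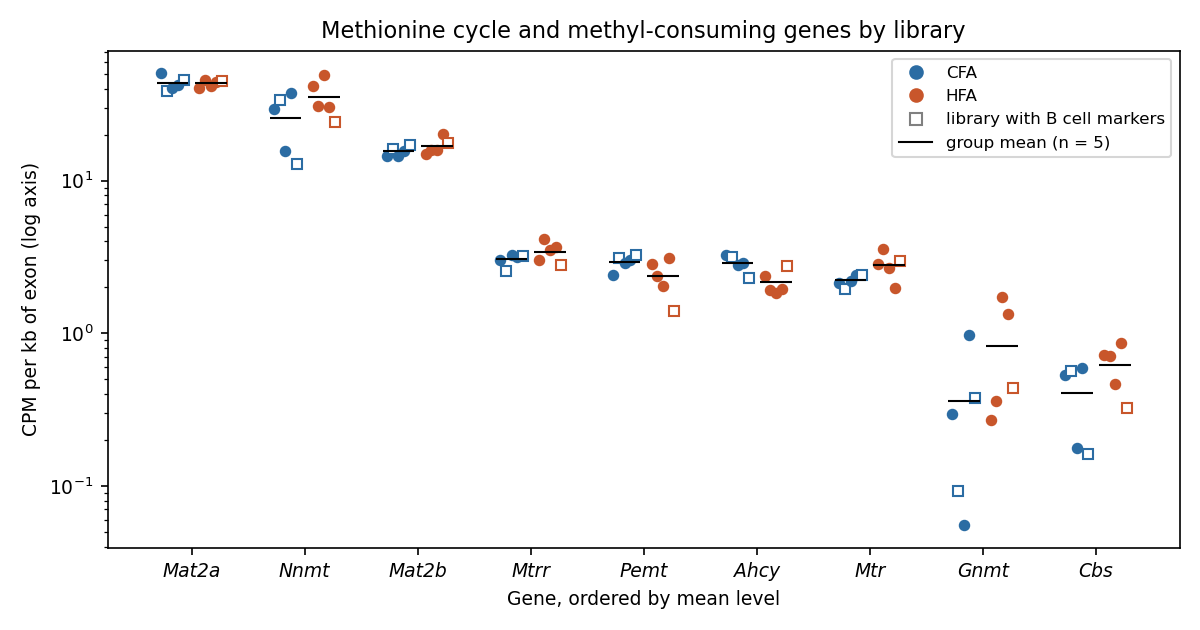
Level of 9 members in each library, in CPM per kb of exon on a log axis, with genes ordered by their mean. Blue points are CFA libraries, orange points HFA libraries, open squares the 3 libraries with B cell markers, and lines the means of 5 libraries. The diets overlap for each gene shown, *Mat2a* is the tightest and *Gnmt* the widest, and *Bhmt*, at 0 everywhere, is not drawn.

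The members also differed in how steady they were. The coefficient of variation of CPM over the 10 libraries was 7.93% for *Mat2a* and 10.8% for *Mat2b*, and for *Mat2a* the highest library was 1.31 times the lowest. *Mtrr* varied by 13.8%, *Mtr* by 20.1%, *Ahcy* by 20.9% and *Pemt* by 22.4%. *Nnmt* (36.3%) and *Cbs* (45.7%) were the most variable of the 8 members with enough reads to be tested, and their highest libraries were 3.85 and 5.36 times their lowest. The median over those 8 was 20.5%, against 26.8% over all genes tested.

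The remethylation of homocysteine was represented by *Mtr* and *Mtrr* and not by *Bhmt*. *Mtr* encodes methionine synthase, the cobalamin-dependent enzyme that moves the methyl group of 5-methyltetrahydrofolate to homocysteine (ENSMUSG00000021311, minus strand of chromosome 13, 12182712 to 12258113). In the CFA libraries T1224, T1234, T1314, T1324 and T1334 its level was 18.3, 16.6, 18.8, 20.5 and 20.7 CPM, from 149 to 283 reads. In the HFA libraries T2214, T2224, T2234, T2314 and T2334 it was 24.1, 30.4, 22.8, 16.8 and 25.2 CPM, from 165 to 428 reads. Of the HFA libraries 4 lay above all 5 CFA libraries, and T2314 lay with the lowest CFA library. The means were 18.98 ± 1.68 and 23.9 ± 4.89 CPM (SD, n = 5 each). The log2 fold change was 0.40 (SE 0.16, 95% interval 0.05 to 0.75), and the unadjusted p of 0.0293 became an adjusted p of 0.655 by the edgeR quasi-likelihood test. *Mtr* was the only member of the 8 tested with an unadjusted p below 0.05. Over all genes tested, 7.36% had such a p, 3.87% with a higher and 3.49% with a lower level in HFA. Without T2334 the log2 fold change of *Mtr* was 0.32 and its unadjusted p 0.0805, and without T1224, T1234, T1314 or T2224 the unadjusted p was also above 0.05 (0.0782 to 0.112).

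*Mtrr* encodes methionine synthase reductase, which restores the cobalamin of methionine synthase after it has been oxidised (ENSMUSG00000034617, chromosome 13, 68560780 to 68582149). It stood at 15.8, 13.3, 16.8, 16.5 and 16.7 CPM in the CFA libraries, in the same order as above. In the HFA libraries it stood at 15.6, 21.5, 18.2, 19.1 and 14.6 CPM. The groups overlapped, with T1234 lowest of all and T2224 highest. The means were 15.8 ± 1.49 and 17.8 ± 2.73 CPM, and the log2 fold change was 0.23 (SE 0.14, 95% interval -0.07 to 0.53, adjusted p = 0.708 by the edgeR quasi-likelihood test). Without T1234 it was 0.13.

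The ratio of *Mtr* to *Mtrr*, both per kb of exon, is free of the scaling between libraries. It ran from 0.682 to 0.764 in the CFA libraries and was 0.942, 0.865, 0.762, 0.539 and 1.05 in the HFA libraries. The CFA libraries were close together (SD 0.07 on the log2 scale), and the HFA libraries lay on both sides of them (SD 0.37). The mean log2 ratio was 0.15 higher in HFA, with a two-sided exact permutation p of 0.452 over all splits of 5 against 5, where the smallest p possible is 0.00794. With 1 library left out the difference was between 0.06 without T2334 (exact p = 0.817) and 0.30 without T2314, the lowest library (exact p = 0.0159), and the exact p was at least 0.429 without any of the other 8.

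*Bhmt*, which encodes the betaine-homocysteine methyltransferase of liver and kidney (ENSMUSG00000074768, chromosome 13, 93616675 to 93637961), had 0 reads in all 10 libraries. A count of 0 allows up to 0.0473 CPM over the pooled reads of the CFA libraries and 0.0526 CPM over those of HFA, by counting error only. Since 21.6% of its sequence occurs in other genes, a part of its reads could not have been counted, and on the rest no read was found. Its relative *Bhmt2* and the betaine-route enzyme *Dmgdh* were at 0 as well.

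The making of SAM was carried by a steady pair. *Mat2a* encodes the catalytic subunit of the methionine adenosyltransferase found outside the liver (ENSMUSG00000053907, chromosome 6, 72432799 to 72439558). It measured 227, 174, 181, 191 and 207 CPM in the CFA libraries and 183, 205, 188, 199 and 200 CPM in the HFA libraries, from 1359 to 3398 reads. All 5 HFA libraries lay inside the range of the CFA libraries. The means were 196 ± 21.3 and 195 ± 9.28 CPM, and the log2 fold change of 0.06 had a 95% interval of -0.17 to 0.30 (adjusted p = 0.907 by the edgeR quasi-likelihood test). Its sign changed with the scaling (log2 fold change -0.0058 with no filter), so *Mat2a* has no direction here. The near copy *Gm9523* held 3.23% to 5.48% of the summed reads of both, and with them added the log2 fold change was 0.07. The opposite-strand transcript *Particl* shares 508 exon bases with *Mat2a* (11.3%) and had 17 to 52 reads per library. The kit did not keep strand, so reads in that stretch cannot be told apart.

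*Mat2b* encodes the regulatory subunit of the same enzyme (ENSMUSG00000042032, chromosome 11, 40679314 to 40695203). It was at 72.0, 81.1, 72.7, 78.6 and 85.2 CPM in the CFA libraries and 75.1, 79.6, 79.9, 102 and 88.6 CPM in the HFA libraries. T2314 and T2334 were the highest, and the other 3 HFA libraries lay among those of CFA. Its log2 fold change was 0.19 (SE 0.12, 95% interval -0.06 to 0.45, adjusted p = 0.715 by the edgeR quasi-likelihood test). Without T1224, T1314, T2314 or T2334 it was 0.12. The ratio of *Mat2a* to *Mat2b* per kb was 3.51, 2.38, 2.77, 2.71 and 2.70 in CFA and 2.71, 2.87, 2.62, 2.17 and 2.52 in HFA. *Mat2a* was thus above its regulatory partner in every library, and the log2 ratio differed by -0.12 between diets (two-sided exact permutation p = 0.373). That difference was -0.04 without T1224 and -0.06 without T2314. *Mat1a*, the liver form of the catalytic subunit, had too few reads to be tested.

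*Ahcy* (ENSMUSG00000027597) was lower in most HFA libraries, on few reads. Its level in the CFA libraries was 9.15, 8.92, 7.91, 8.08 and 6.44 CPM, from 80 to 129 reads. In the HFA libraries it was 6.67, 5.41, 5.11, 5.43 and 7.73 CPM, from 37 to 131 reads. Of the CFA libraries 4 lay above all 5 HFA libraries, and T1334 lay below T2214 and T2334. The means were 8.10 ± 1.07 and 6.07 ± 1.10 CPM. The log2 fold change was -0.34 (SE 0.18, 95% interval -0.74 to 0.06, unadjusted p = 0.0905, adjusted p = 0.693 by the edgeR quasi-likelihood test). Without T2334 it was -0.51 (95% interval -0.88 to -0.14) with an unadjusted p of 0.0119 and an adjusted p of 0.116 by the same test. In that fit 25.8% of all genes had an unadjusted p below 0.05, and 15% had it with a lower level in HFA. Without the 3 libraries with B cell markers it was also -0.51, with an adjusted p of 0.124 by the edgeR quasi-likelihood test and 23.4% of all genes at an unadjusted p below 0.05.

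The copies held most of the counted reads of the *Ahcy* family. *Gm4737* had 232, 123, 211, 187 and 132 reads in the CFA libraries and 101, 138, 103, 133 and 177 in the HFA libraries. It had more reads than *Ahcy* in all 10, by 1.35 to 2.78 times. *Gm9826* had 21 to 71 reads and *Gm5638* had 0. *Ahcy* itself took 22.3% to 36.7% of the reads of the family. Since a read of an identical stretch cannot be told apart between the genes, whether *Gm4737* is transcribed was not tested.

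With the 3 copies added, the family stood at 30.3, 26.4, 26.7, 25.5 and 18.7 CPM in the CFA libraries and 20.0, 21.02, 22.9, 20.6 and 21.1 CPM in the HFA libraries. Of the CFA libraries 4 again lay above all 5 HFA libraries, while T1334 was now the lowest of all 10. The means were 25.5 ± 4.22 and 21.1 ± 1.11 CPM. For the sum the log2 fold change was -0.20 (SE 0.14, 95% interval -0.51 to 0.10, adjusted p = 0.754 by the edgeR quasi-likelihood test), against -0.34 for *Ahcy* alone. By itself *Gm4737* had a log2 fold change of -0.12 and *Gm9826* of -0.22.

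**Figure D2:**
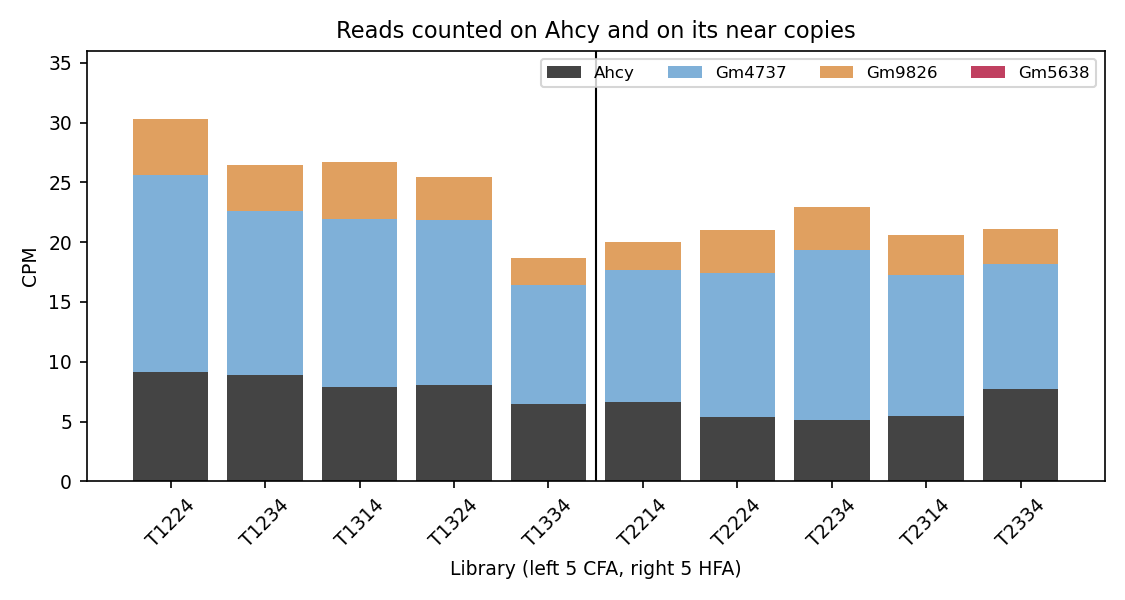
Reads counted on *Ahcy* and on its near copies in each library, in CPM, as stacked bars that start at 0, with the 5 CFA libraries on the left. *Gm4737* takes the largest share of every bar, *Gm5638* has none, and the whole bar reaches 18.7 to 30.3 CPM in CFA and 20.0 to 22.9 CPM in HFA.

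The ratio of *Ahcy* to *Mat2a* sets the enzyme that removes S-adenosylhomocysteine against the enzyme that makes SAM, within a library. Per kb it was 0.0645, 0.0822, 0.0700, 0.0677 and 0.0498 in the CFA libraries and 0.0583, 0.0422, 0.0435, 0.0437 and 0.0617 in the HFA libraries. It was thus below 1 throughout, and with the near copies added to both genes it ran from 0.139 to 0.236. For *Ahcy* itself, T1334 alone of CFA lay below T2214 and T2334. The mean log2 ratio was -3.92 ± 0.26 in CFA and -4.34 ± 0.26 in HFA, a difference of -0.42 with a two-sided exact permutation p of 0.0476, or 0.143 after adjustment over the 3 ratios tested. With the near copies added to both genes the difference was -0.27 with an exact p of 0.111, so the ratio did not hold its side of the threshold.

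Markers of dividing cells are given beside *Ahcy*. The 7 of them, *Mki67* the most abundant, were all lower in HFA by sign, as were 40% of all genes tested. Of the 7, 3 had an unadjusted p below 0.05 by the edgeR quasi-likelihood test. Over all genes, 3.49% had such a p with a lower level. The summed level of the 7 markers was 166, 143, 255, 111 and 63.6 CPM in the CFA libraries and 25.6, 38.5, 47.7, 11.2 and 154 CPM in the HFA libraries. T1334 was the lowest CFA library and T2334 the highest HFA library for this sum and for *Ahcy* alike. The other libraries were not in the same order. T1314 had the highest sum but less *Ahcy* (7.91 CPM) than T1224, T1234 and T1324. T2234 had the least *Ahcy* (5.11 CPM) but a higher sum than T2214, T2224 and T2314. The part of dividing cells in the level of *Ahcy* was not tested.

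*Cbs* encodes cystathionine beta-synthase, which joins homocysteine to serine and so takes it out of the cycle (ENSMUSG00000024039, chromosome 17, 31608894 to 31637238). It measured 3.97, 4.24, 1.33, 4.41 and 1.21 CPM in the CFA libraries, from 16 to 60 reads, and 5.35, 5.32, 3.45, 6.50 and 2.42 CPM in the HFA libraries, from 25 to 73 reads. The CFA libraries fell apart into 3 near 4 CPM and 2, T1314 and T1334, at the bottom of all 10. The means were 3.03 ± 1.61 and 4.61 ± 1.64 CPM. Among the 8 members tested, its log2 fold change of 0.67 was the largest, and so was its error (SE 0.43, 95% interval -0.28 to 1.61, adjusted p = 0.741 by the edgeR quasi-likelihood test). Without T1314 it was 0.43.

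The methyl-consuming enzymes are given next. *Nnmt* encodes nicotinamide N-methyltransferase, an enzyme of fat and liver that spends SAM on nicotinamide (ENSMUSG00000032271, chromosome 9, 48591877 to 48605153). Its level was 46.8, 53.1, 24.7, 59.3 and 20.2 CPM in the CFA libraries and 65.3, 48.7, 77.9, 48.1 and 38.1 CPM in the HFA libraries. As with *Cbs*, T1314 and T1334 were the lowest of all 10 and T2334 the lowest of HFA. The means were 40.8 ± 17.4 and 55.6 ± 15.8 CPM, and the log2 fold change was 0.51 (SE 0.31, 95% interval -0.19 to 1.21, adjusted p = 0.726 by the edgeR quasi-likelihood test). Without T1314 it was 0.33 and without T1334 0.34.

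The 3 libraries in which *Cbs* and *Nnmt* were lowest also had the lowest sums of adipocyte markers. The 7 adipocyte markers, *Fabp4* the most abundant, summed to 10114 CPM in T1314, 10502 in T1334 and 8557 in T2334, and to between 11243 and 15674 CPM in the other 7 libraries. *Fabp4* alone held 5551 to 9453 CPM of these sums. By single marker the 3 libraries were the lowest for *Adipoq* and *Cidec*, but not for *Fabp4*, *Plin1*, *Lep*, *Retn* or *Lipe*. *Lipe* was at 688 CPM in T1314 and 758 in T1334, against 602 in T1224 and 563 in T1234. None of the 7 was at 0 in any library. Of the 7, 6 were higher in HFA by sign and 0 had an unadjusted p below 0.05. The part of adipocyte RNA in *Cbs* and *Nnmt* was not tested. With the mean of epithelial markers as a covariate, the log2 fold change of *Cbs* was 1.15 (unadjusted p = 0.0167) and that of *Nnmt* 0.86 (unadjusted p = 0.0136), both with an adjusted p of 0.343 by the edgeR quasi-likelihood test, and 13.9% of all genes had an unadjusted p below 0.05 in that fit.

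*Pemt* encodes phosphatidylethanolamine N-methyltransferase, which makes phosphatidylcholine with methyl groups from SAM and is best known from liver (ENSMUSG00000000301, chromosome 11, 59970614 to 60046489). It stood at 5.03, 6.58, 6.05, 6.39 and 6.89 CPM in the CFA libraries and 6.01, 4.97, 4.28, 6.59 and 2.95 CPM in the HFA libraries. The groups overlapped, and T2334 was the lowest. Its log2 fold change was -0.26 (SE 0.22, 95% interval -0.75 to 0.23, adjusted p = 0.796 by the edgeR quasi-likelihood test). It was -0.17 without T2334 and -0.04 without the 3 libraries with B cell markers.

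*Gnmt* encodes glycine N-methyltransferase, which uses up spare SAM in liver (ENSMUSG00000002769, chromosome 17, 46725664 to 46729168). It had 5, 1, 1, 16 and 6 reads in the CFA libraries and 3, 5, 15, 18 and 9 in the HFA libraries, and was too low for the test across genes. In CPM these are 0.355, 0.111, 0.0665, 1.18 and 0.454 in CFA and 0.328, 0.436, 2.07, 1.60 and 0.531 in HFA. The HFA libraries T2234 and T2314 and the CFA library T1324 were high, and the groups overlapped. The mean was 0.562 CPM higher in HFA (two-sided exact permutation p = 0.206), and 0.292 CPM higher without T2234. T2234 and T2314 also held the most *Cyp2e1*, the leading gene of the hepatocyte list (2442 and 1211 CPM, against 199 to 776 in the others). The plasma-protein genes *Apoa1* and *Ttr* of that list had at most 1 read in any library, and *Alb* had 73 to 361. Of the 7 genes of the list, 4 were at 0 in T2234 and 2 in T2314, against 1 to 3 in the other libraries. T2234 and T2314 were also highest for summed brown or beige fat markers (1500 and 1935 CPM, against 103 to 1404 in the others). The part of either list in *Gnmt* was not tested.

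Across the 8 members tested, 6 were higher and 2 lower in HFA by sign, with a median log2 fold change of 0.21. Over all 15610 genes 60% were higher and 40% lower, and the median was 0.06. That median depended on the fit, being -0.0023 with upper-quartile scaling, 0.012 with no filter and -0.046 without T2334. In those fits 5 of 8, 6 of 9 and 5 of 8 members were higher by sign. By limma voom with quality weights 4 members had an unadjusted p below 0.05, *Mtr*, *Ahcy*, *Nnmt* and *Cbs*, beside 30.1% of all genes. No member passed an adjusted p of 0.05 by the edgeR quasi-likelihood test, nor did any gene (0%). The CPM of the groups overlapped for all 10 members, *Bhmt* being at 0 throughout, as they did for all but 0.769% of the genes tested. The 95% intervals reached no further than 0.30 upward for *Mat2a*, 0.45 for *Mat2b*, 0.53 for *Mtrr* and 0.75 for *Mtr*, and were widest for *Cbs*.

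**Figure D3:**
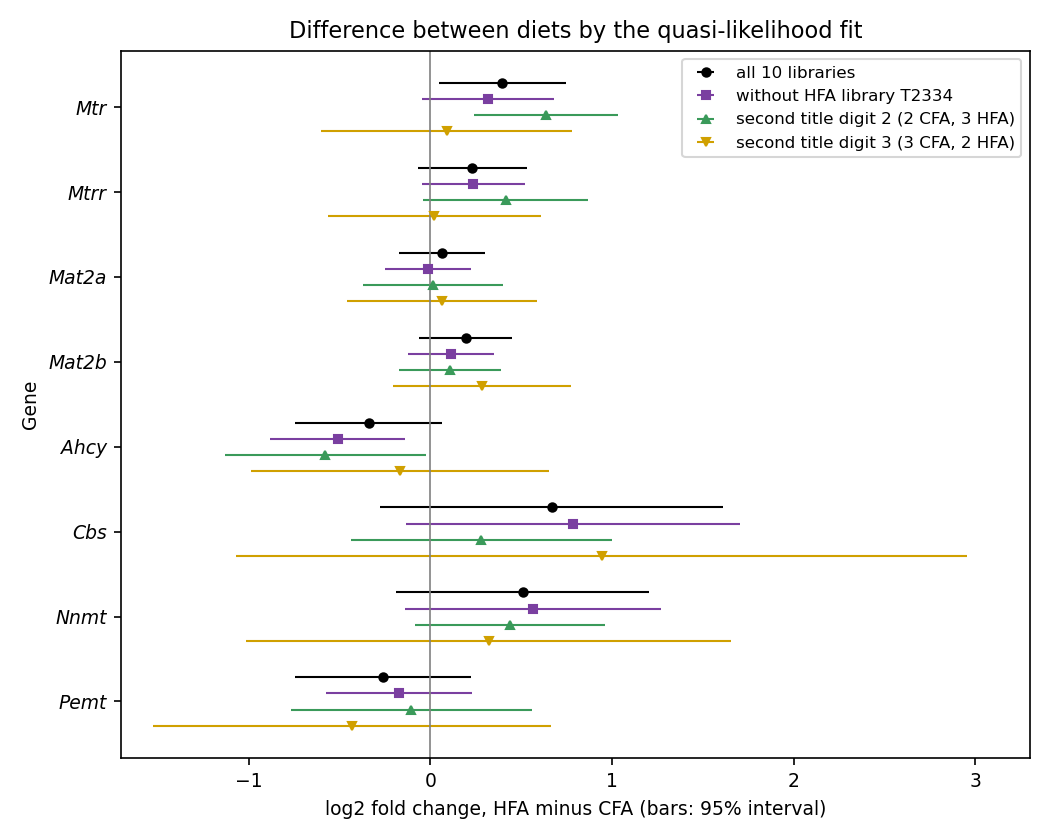
Log2 fold change of HFA minus CFA for the 8 members tested, with bars for the 95% interval of the edgeR quasi-likelihood fit, for all 10 libraries, without T2334, and within each second title digit. All intervals over 10 libraries cross 0 except that of *Mtr* (0.05 to 0.75), and the interval of *Ahcy* leaves 0 without T2334 (-0.88 to -0.14).

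The titles carry a second digit that both diets share and whose meaning is not given in the sources used here. The digit 2 stands on 2 CFA and 3 HFA titles, and the digit 3 on the other 5. For *Mtr* the log2 fold change was 0.64 within digit 2 (95% interval 0.24 to 1.04, unadjusted p = 0.00689 and adjusted p = 0.0595 by the edgeR quasi-likelihood test) and 0.09 within digit 3 (95% interval -0.60 to 0.78). For *Ahcy* it was -0.58 within digit 2 (unadjusted p = 0.0426, adjusted p = 0.149 by the same test) and -0.17 within digit 3. *Mtrr* moved like *Mtr*, with 0.42 and 0.02. In these fits 30.7% and 3.07% of all genes had an unadjusted p below 0.05. The difference between the digits was itself tested by an interaction term, and no member passed, with unadjusted p-values from 0.167 for *Mat2b* to 0.994 for *Nnmt* and adjusted p-values of at least 0.575 by the edgeR quasi-likelihood test. Over all genes 8.46% had an unadjusted interaction p below 0.05 and 0% an adjusted one. No direction changed between the digits for any of the 8 members.

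**Figure D4:**
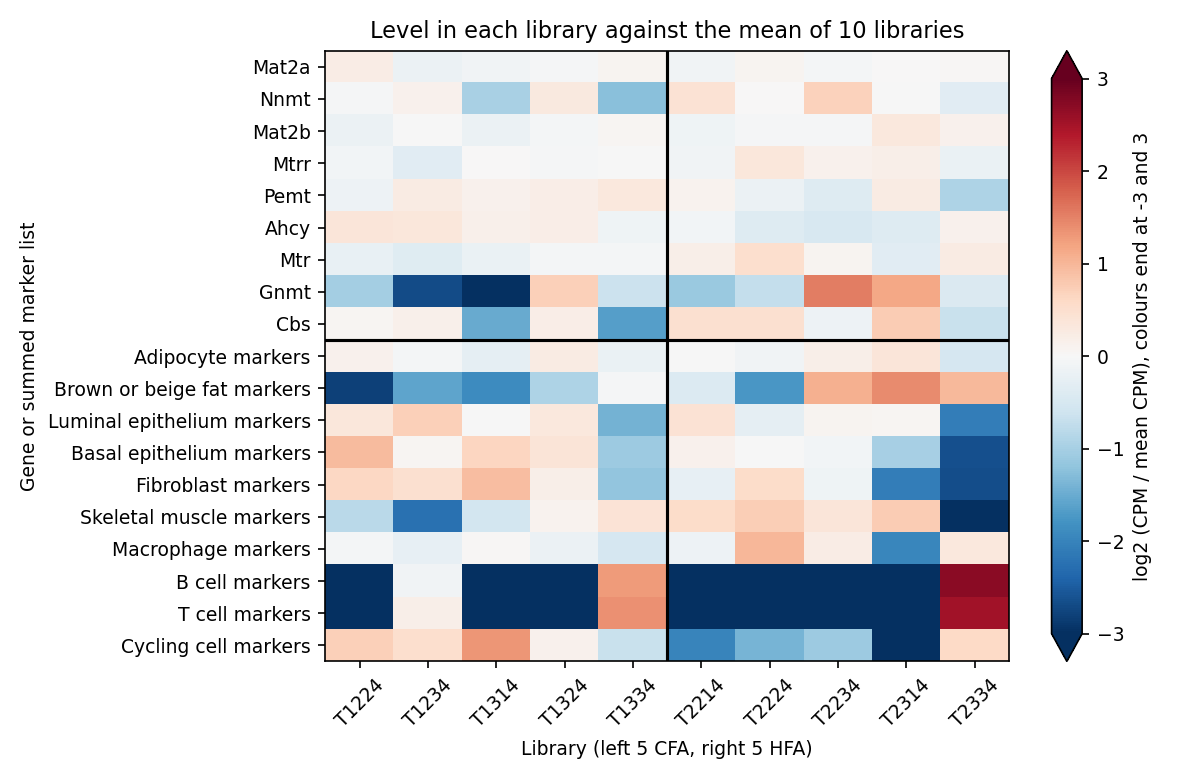
Level of 9 members and of 10 summed marker lists in each library, as the log2 of CPM over the mean of 10 libraries, with red above and blue below that mean and the colours ending at -3 and 3. *Nnmt* and *Cbs* are lowest in T1314 and T1334, B and T cell markers are high in T1234, T1334 and T2334, and *Mat2a* and *Mat2b* stay near their means throughout.

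Other marker lists are given for the tissue as a whole. None of their genes passed an adjusted p of 0.05 by the edgeR quasi-likelihood test. Over all genes 60% were higher by sign, and 3.87% had an unadjusted p below 0.05 with a higher and 3.49% with a lower level. For T cells, skeletal muscle and macrophages all 6 markers tested were higher, as were 5 of 6 for endothelium. The T cell sum in HFA was 696 CPM in T2334 but 7.10 to 10.8 CPM in the other libraries. In CFA it was 139 CPM in T1234, 318 CPM in T1334 and 9.84 to 12.3 CPM in the others. The direction of the T cell markers thus rested on T2334. Lower by sign were 6 of 7 luminal and 5 of 6 fibroblast markers. All 7 brown or beige fat markers were higher in HFA by sign, 4 of them with an unadjusted p below 0.05, and their summed level was 103 to 697 CPM in CFA and 216 to 1935 CPM in HFA. All 6 basal epithelium markers were lower by sign, with 432 to 1765 CPM in CFA and 148 to 1003 CPM in HFA. Of the 6 Schwann cell markers, all were higher by sign and 3 had an unadjusted p below 0.05. The sum of the 6 was 234 to 315 CPM in CFA. In HFA it was 165 CPM in T2334, the lowest library, and 389 to 572 CPM in the others. The part of any of these lists in the levels of the members was not tested.

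For each member tested, other genes with the closest pattern of log2 CPM were listed by Pearson's r. These values are over the same 10 libraries, chosen out of all genes tested, and share the cell makeup of each library. *Mtr* was closest to *Irak3* (r = 0.959, Spearman's rho = 0.927) and *Nup98* (r = 0.955). *Mtrr* was closest to *Cdh19* (0.960) and *Eloa* (0.949). For *Mat2a*, the steadiest member, the closest gene was less close, *Gm42748* at 0.911. *Mat2b* was nearest to *Zbtb22* (0.963) and *Taz* (0.959), and *Ahcy* to *Celsr1* (0.962) and *Chd6* (0.954). *Cbs* was nearest to *Ifi27l2a* (0.956) and *Neil2* (0.925), and *Nnmt* to *Tmem200b* (0.909) and *Aldh3b2* (0.908). *Pemt* was nearest to *Spa17* (0.943) and *Mrpl48-ps* (0.930), which were 0.832 and 0.838 without T2334. *Mtr* and *Mtrr* were not on each other's list, nor were *Mat2a* and *Mat2b*. Since a list held only the closest 2 of all genes tested, it cannot show whether these pairs vary together.

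A wider list of 62 genes of methionine and methyl-group metabolism set these enzymes among their neighbours in 10 roles. Of the 56 tested, 35 were higher and 21 lower in HFA by sign, with a median log2 fold change of 0.11, where 60% of all genes were higher. At an unadjusted p below 0.05 there were 2 higher and 3 lower, beside 7.36% of all genes, and at an adjusted p of 0.05 there were 0 by the edgeR quasi-likelihood test. The 6 not tested for low counts were *Mat1a*, *Bhmt2*, *Dmgdh*, *Pipox*, *Asmt* and *Pnmt*.

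*Lmbrd1*, which carries cobalamin out of the lysosome and so serves methionine synthase, had the smallest p of the list. It measured 71.8, 77.6, 79.3, 86.2 and 87.9 CPM in the CFA libraries and 89.4, 95.4, 91.3, 94.6 and 111 CPM in the HFA libraries. The groups did not overlap, as was so for 0.769% of all genes tested. The log2 fold change was 0.33 (SE 0.11, unadjusted p = 0.0133, adjusted p = 0.655 by the edgeR quasi-likelihood test), and without T2334 it was 0.21. All 6 genes of cobalamin supply were higher by sign, as were 60% of all genes, the other 5 with log2 fold changes of 0.06 to 0.18, and the most abundant was *Tcn2*, the plasma carrier of cobalamin, at 64.1 CPM per kb.

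Among the small-molecule methyltransferases, 8 of 10 were tested, of which 6 were higher by sign. *Tpmt*, which methylates thiopurines, measured 5.11, 7.69, 8.98, 8.15 and 6.13 CPM in the CFA libraries and 5.68, 3.92, 4.97, 5.16 and 3.60 CPM in the HFA libraries. The groups overlapped, since T1224 lay below T2214 and T2314. Its log2 fold change was -0.56 (SE 0.21, unadjusted p = 0.0214, adjusted p = 0.655 by the edgeR quasi-likelihood test).

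*Nampt*, which recycles the nicotinamide that *Nnmt* would otherwise methylate, measured 125, 124, 147, 158 and 165 CPM in CFA and 147, 165, 211, 231 and 155 CPM in HFA. T2234 and T2314 were the highest, T2224 lay just above the CFA libraries, and T2214 and T2334 lay among them. Its log2 fold change was 0.41 (SE 0.16, unadjusted p = 0.0273, adjusted p = 0.655 by the edgeR quasi-likelihood test). *Gclm*, the modifier subunit of the enzyme that starts glutathione synthesis downstream of *Cbs*, had -0.45 (SE 0.19) with 51.1 to 75.6 CPM in CFA and 28.0 to 58.5 CPM in HFA. The most abundant gene of its role was *Cdo1*, which oxidises cysteine, at 483 CPM per kb and with a log2 fold change of -0.10.

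Elsewhere in the list, *Srm*, the spermidine synthase that uses decarboxylated SAM, had groups that did not overlap, as did 0.769% of all genes tested. The point was chosen after the values of *Srm* were seen. It ran from 27.5 to 30.6 CPM in CFA and from 19.9 to 26.3 CPM in HFA (log2 fold change -0.22, SE 0.12, adjusted p = 0.693 by the edgeR quasi-likelihood test). *Ahcyl1*, a relative of *Ahcy* without known hydrolase activity, stood at 28.4 CPM per kb with a log2 fold change of 0.26 (SE 0.19). The counted level of *Ahcy* was 2.53 CPM per kb, but it leaves out the reads shared with its copies, so the levels are not alike. *Chpt1*, which completes phosphatidylcholine from choline and so bypasses *Pemt*, stood at 138 CPM per kb with a log2 fold change of 0.13 (SE 0.26). The leading genes of the other roles, *Slc25a26*, *Aldh7a1*, *Adi1* and *Pcmt1*, had log2 fold changes between -0.09 and 0.21.

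**Figure D5:**
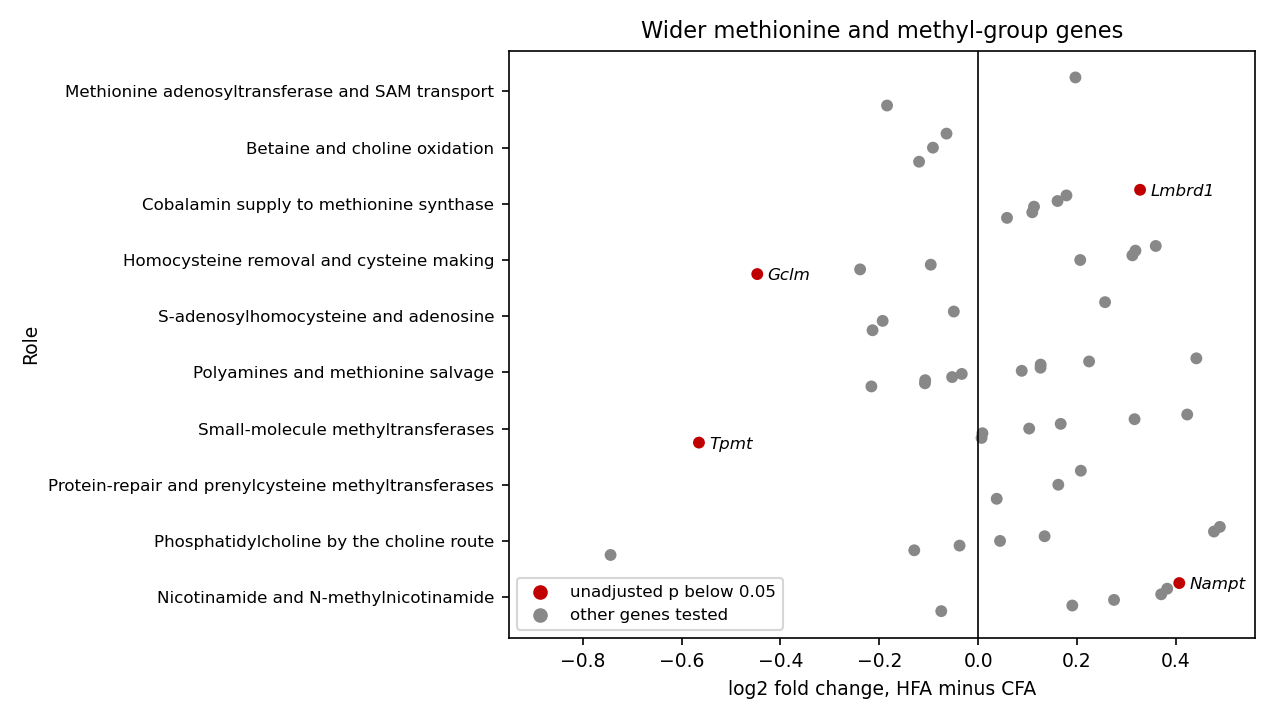
Log2 fold change of HFA minus CFA for all but 1 of the 56 genes of the wider list that were tested, 1 point per gene and 1 line per role, with genes of unadjusted p below 0.05 in red. *Lmbrd1* and *Nampt* lie right of 0 and *Tpmt* and *Gclm* left of it, and all 6 genes of cobalamin supply lie right of 0, as do 60% of all genes tested.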

How the data were processed

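Per the labels and the study's methods, RNA of 10 mammary fat pads was sequenced as 75 bp paired reads from an unstranded kit. The authors used TopHat 2.0.14 with Bowtie 2.2.5 for alignment to GRCm38, counted them on Ensembl genes with HTSeq 0.6.1, and deposited raw whole-number counts per gene with no normalization. The authors discarded 1 HFA sample for poor reads and 1 sample as an outlier. Reads per library ran from 7672199 to 14829291, and intervals for counts cover counting error only.

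Member symbols were matched to Ensembl identifiers, positions and exon lengths in GENCODE M21 (GRCm38), which named 46488 of 46983 genes. This release is later than the annotation used for counting. Near copies were found as shared stretches of 75 bases between annotated transcripts. HTSeq summary lines were kept out of library sizes. Genes were kept by filterByExpr (minimum count 10), with TMM scaling over the genes kept. The CPM values, and the overlap of groups in CPM, used TMM scaling over all genes. The diets were compared by the quasi-likelihood test of edgeR 4.0.16 in R 4.3.3, without covariates, with Benjamini-Hochberg adjustment. The study's model held cage, which the labels do not give. *Gnmt* and 3 ratios were compared by exact permutation over libraries. Replicates are separate mice by the study's design.

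Alternatives were other scalings and filters, the likelihood ratio test, DESeq2 1.42.0, limma 3.58.1 (voom, also with quality weights), a term for the second title digit, a replicate block, marker covariates, the libraries of each second title digit, and each library left out. Sums with near copies and leaving out the 3 libraries with B cell markers above 100 CPM were added after the data were seen. Named were all members, genes of the wider list with an unadjusted p below 0.05 or the highest level of a role, the 2 genes most like each member, and the leading marker of a list where its list is described. Other single markers of the adipocyte and hepatocyte lists were named after their values were seen. A gene of the wider list and a gene like *Mat2a* that these rules name are not reported here. The members and lists were chosen with earlier results of these data known. The fit was tested on simulated data, of which no outcome is given here.

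The last 3 title digits are shared by 4 CFA and 4 HFA libraries. Their deviations correlated at 0.30, -0.29, 0.11 and 0.41, so the digits were not taken to pair the mice.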

Additional observations from a re-analysis of the deposited data

Results flagged for a closer look

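The CFA library T1234 lay apart from the other 4 CFA libraries in its level of *Mtrr*, 13.3 CPM against 15.8 to 16.8 CPM, by Dixon's criterion for 5 samples. Chance sets off this criterion in about 5% of groups, and it was applied to the members in both diets. T1234 is also 1 of the 3 libraries with B cell markers and had the least skeletal muscle marker RNA of the CFA libraries. The part of either in *Mtrr* was not tested.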

How the results depend on the processing

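No member passed an adjusted p of 0.05 in any fit run, and apart from *Mat2a* no tested member changed sign. The log2 fold change of *Mat2a* was -0.0018 with upper-quartile scaling, -0.0058 with no filter and -0.0036 by limma voom with quality weights, and ran from -0.027 to 0.090 with 1 library left out. Members with an unadjusted p below 0.05, 1 by the edgeR quasi-likelihood test, numbered 0 with no filter, 0 by the likelihood ratio test, 4 by limma voom with quality weights (*Mtr*, *Ahcy*, *Nnmt* and *Cbs*, beside 30.1% of all genes), 2 with the epithelial covariate, 2 within second title digit 2, 0 within digit 3, and 0 to 1 with 1 library left out. By the edgeR quasi-likelihood test *Mtr* was not among them with upper-quartile scaling (unadjusted p = 0.0529, with *Ahcy* at 0.0423 in its place), with the epithelial covariate (unadjusted p = 0.0695), without the libraries with B cell markers (unadjusted p = 0.0993) or without T2334. For the wider list, 5 by the edgeR quasi-likelihood test, they numbered 3 by the likelihood ratio test (6.44% of all genes), 20 by limma voom with quality weights (30.1%), 8 with the B and T cell covariate (14.3%), 18 within digit 2 (30.7%), 1 within digit 3 (3.07%), 13 without the libraries with B cell markers (23.4%), and 3 to 17 with 1 library left out, 17 being without T2334 (25.8%). Genes past an adjusted p of 0.05, 0 of 15610 by the edgeR quasi-likelihood test (1149 had an unadjusted p below 0.05), numbered 60 by DESeq2, 33 by the likelihood ratio test, 1037 by limma voom with quality weights, 2 with the B and T cell covariate, 1 with the epithelial covariate, 1418 within digit 2, 469 without the libraries with B cell markers, and 0 to 6 with 1 library left out, 6 being without T2334. For the interaction of diet and digit they numbered 31 by the likelihood ratio test. The log2 ratio of *Ahcy* to *Mat2a* differed by -0.27 with near copies summed (exact p = 0.111) and by -0.52 to -0.34 with 1 library left out (exact p from 0.0238 to 0.0952). That of *Mtr* to *Mtrr* differed by 0.057 to 0.30 with 1 library left out, 0.30 being without T2314. That of *Mat2a* to *Mat2b* differed by -0.18 to -0.04, and *Gnmt* by 0.292 to 0.747 CPM (0.292 without T2234), with 1 library left out. The causes of these changes were not tested.

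With the replicate block of shared title digits, on 8 libraries, 0 genes passed an adjusted p of 0.05 and 1066 an unadjusted p of 0.05 by the edgeR quasi-likelihood test. In that paired fit *Mtr* had an unadjusted p of 0.0879 and *Nnmt* of 0.0174, and the log2 ratio of *Ahcy* to *Mat2a* differed by -0.48 (exact sign-flip p = 0.25). With 4 pairs the sign-flip test cannot reach a p of 0.05, whatever the values. Of the 8 libraries, 2 correlated best with their own number. Depth limits *Gnmt*, *Cbs*, *Pemt* and *Ahcy* most, with as few as 1, 16, 31 and 37 reads in a library.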
